A study of Mus musculus with 6 samples.

Results

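Immediate early genes are the genes a cell switches on within minutes of a stimulus, without new protein synthesis. The 10 genes described here were Fos, Fosb, Fosl2, Jun, Junb, Jund, Egr1, Egr2, Ier2 and Atf3, taken by name from the 55536 genes of the GENCODE mouse annotation. For each gene, the peaks of H3K79me2 (histone H3 dimethylated at lysine 79) were collected over the gene body and the 3 kb on either side of it, an interval called the gene window below. The cells were N2a, a mouse neuroblastoma line, and the mark was mapped in them by ChIP-seq, the sequencing of DNA pulled down with an antibody against it.

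Control cells (CTR) had been transfected with a plasmid for a non-targeting short hairpin RNA, and knockdown cells (NPM1 KD) with a plasmid for a hairpin against Npm1, which encodes the nucleolar histone chaperone nucleophosmin. Both groups were collected after 3 days in vitro, and the study selected knockdown cultures with puromycin after transfection. Each group had 2 libraries, each from another passage of cells and another transfection, and 1 hairpin sequence stood for the knockdown. The peak lists hold no RNA measurement, so the level of Npm1 itself was not measured in them.

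H3K79me2 is laid down by the methyltransferase DOT1L and lies over the first part of transcribed genes, downstream of the start site. Immediate early genes are kept ready for firing, with RNA polymerase paused near the start, and are induced through serum response factor with its partners of the Elk and MRTF families and through CREB. Their products are mostly transcription factors, among them the Fos and Jun proteins that pair to form AP-1, the Egr zinc finger proteins, and ATF3, which binds the same kind of site as CREB.

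The lists held 34845 to 48764 broad peaks and 73801 to 88348 narrow peaks per library. The background pileup recovered from the narrow peaks, a relative measure of depth, was 11.9 and 7.65 reads in the control libraries and 8.99 and 11.8 reads in the knockdown libraries, so each group held a deeper and a shallower library. Paired values here and below stand in the order of the replicate numbers, CTR 1 before CTR 2 and NPM1 KD 1 before NPM1 KD 2. The highest summit folds were lower in NPM1 KD 2, where the 99th percentile of the fold over background in the narrow list was 25.8 against 31.2 to 34 in the other libraries. Of 13 neuroblast and neuronal marker genes, 9 had a broad peak in all 4 libraries, and the windows of Phox2a and Hand2 were covered over their full length in each. Nefl, Nefm and Dbh were among those at 0. Of 9 markers of other cell types, 8 were free of broad peaks in each library, and the endothelial gene Pecam1 was covered over at most 0.24% of its window.

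The genes differed in where the mark began relative to the start. For Fos, Egr2 and Atf3 the promoter lay outside the mark, and for Jun it was outside it or touched by its edge. For Junb it lay inside the broad peaks. The stretches just before the start are shown for these 5 genes because the broad peaks either stopped short of them or ran across them. They are the 150 bases before the RefSeq start on build GRCm38.p6, read 5′ to 3′ on the gene's strand, with the TATA motif TATAAA or the CArG box, the binding site of serum response factor, in capitals.
Fos, chr12:85473740-85473889, plus strand: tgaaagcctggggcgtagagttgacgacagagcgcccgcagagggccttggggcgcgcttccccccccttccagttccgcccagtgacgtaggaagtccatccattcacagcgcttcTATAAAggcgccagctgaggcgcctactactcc
Jun, chr4:95052223-95052372, minus strand: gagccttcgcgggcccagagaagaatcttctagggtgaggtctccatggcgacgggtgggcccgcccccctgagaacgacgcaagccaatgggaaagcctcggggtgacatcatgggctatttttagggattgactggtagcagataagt
Junb, chr8:84978749-84978898, minus strand: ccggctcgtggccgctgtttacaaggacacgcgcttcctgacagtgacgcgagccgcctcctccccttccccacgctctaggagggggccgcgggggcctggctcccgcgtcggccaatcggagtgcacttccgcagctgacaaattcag
Egr2, chr10:67537719-67537868, plus strand: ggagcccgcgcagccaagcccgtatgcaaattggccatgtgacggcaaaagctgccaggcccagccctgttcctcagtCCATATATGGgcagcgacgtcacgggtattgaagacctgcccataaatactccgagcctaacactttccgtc
Atf3, chr1:191183334-191183483, minus strand: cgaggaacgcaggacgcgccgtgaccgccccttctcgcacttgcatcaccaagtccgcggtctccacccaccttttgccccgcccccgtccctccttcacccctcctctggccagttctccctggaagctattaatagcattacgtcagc

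RefSeq promoters of 300 bases were matched for 8 of the 10 genes, all but Egr1 and Ier2. In Fos the TATA motif lay 33 to 28 bases before the start, and no broad peak of any library reached the 300 bases. In Egr2, which has several annotated starts, a CArG box (CCATATATGG, chr10:67537797-67537806) lay 72 to 63 bases before the start of Egr2-201, and another (CCTTTTTTGG, chr10:67537494-67537503) lay 72 to 63 bases before an upstream RefSeq start. Both boxes were uncovered in all 4 libraries. In Junb the TATA motif lay at the first 6 bases after the RefSeq start, which is 30 to 25 bases before the start of the GENCODE annotation, and all 6 bases were under a broad peak in every library. The site with its surroundings is given for that reason.
Junb, chr8:84978731-84978760, minus strand: tgacaaattcagTATAAAagcttggggctg

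Over all 32544 distinct RefSeq promoters of the same length, searched on both strands, 13.6% held TATAAA and 1.64% held a CArG box. The cyclic AMP response element TGACGTCA was held by 1.8%. None of the 8 matched genes held TGACGTCA in this window, and forms that differ from these exact letters were not searched. Broad peaks covered the promoters of Fosl2, Junb and Jund over all 300 bases in every library. They covered 0 bases of those of Fos, Fosb, Egr2 (at each of its 5 RefSeq starts) and Atf3 in every library. At the promoter of Jun they covered 11 bases in CTR 1, 26 in NPM1 KD 1 and 0 in the other libraries. Narrow peaks also covered all 300 bases at Fosl2 and Jund in every library, and at Junb in CTR 1 and NPM1 KD 1. In CTR 2 and NPM1 KD 2 they covered the Junb promoter only in part. In NPM1 KD 2 they left its TATA motif uncovered. For Fosl2 the RefSeq start lies 671 bases downstream of the GENCODE start, for Jund at −1210 bases and for Atf3 34706 bases downstream. The RefSeq starts of Egr2 lie 24 to 2455 bases downstream of its GENCODE start. The promoters of these genes therefore do not mark the same place as in the others.

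Nearly all of the genes carried the mark in both conditions. A broad peak was present in all 4 libraries at 9 of the 10, against 52.7% of 22028 protein-coding windows. The exception was Fosb, which had none in CTR 2. The median share of the window covered was 54% and 48.9% in the controls and 56.6% and 56.2% after knockdown, while the median over all protein-coding windows was 3.51% to 6.17%, and it was 40.7% to 48.4% over the protein-coding windows with a broad peak in all 4 libraries. The medians of the groups differed by 4.99 percentage points, and by 2.46 without CTR 2. Over the protein-coding windows with a broad peak in all 4 libraries, the medians were also higher after knockdown. They were 43.8% and 40.7% in the controls and 48.4% and 45.5% in the knockdown libraries. The annotated start itself was under a broad peak in all 4 libraries for 3 of these 9 genes, Junb, Jund and Ier2 (42% of 11609 protein-coding windows with a peak in all libraries). It was under none for the other 6 (37.6% of the same windows). The start counted here is the most upstream one annotated for each gene. Starts farther downstream lay under a broad peak in every library at Fos (Fos-203), Fosl2 (Fosl2-202), Egr1 (Egr1-202) and Egr2 (Egr2-203).

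**Figure D1:**
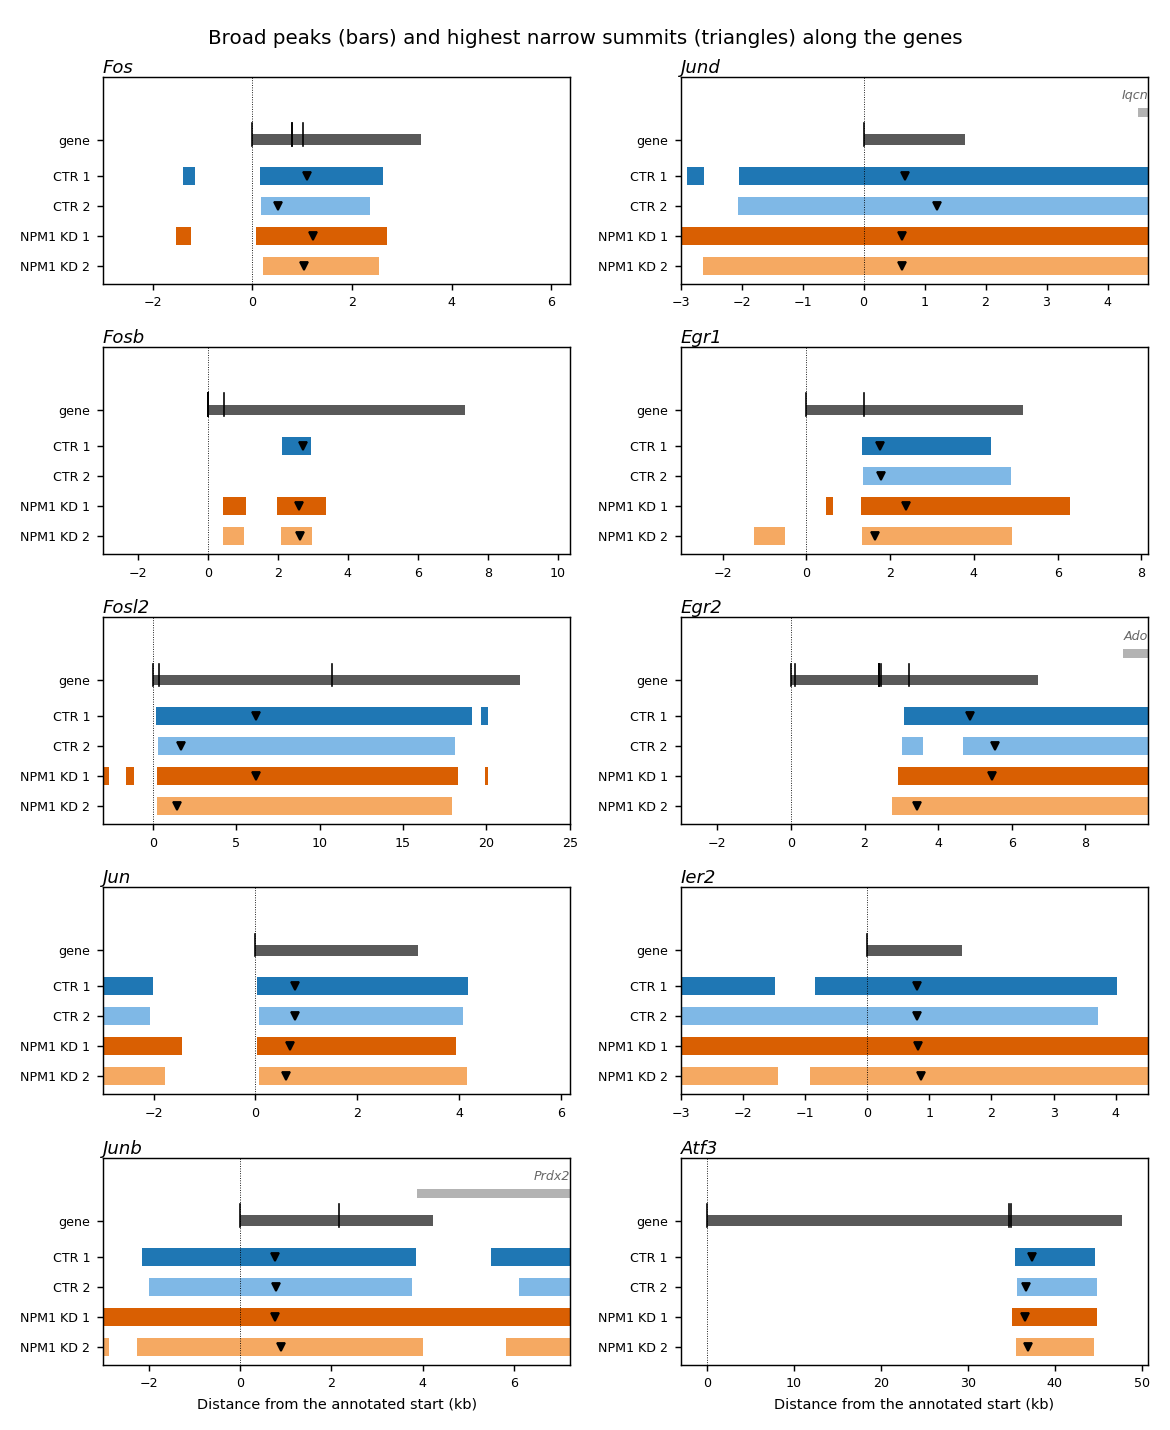
Broad peaks along the 10 genes, drawn over each gene window with the distance from the annotated start in kb on the horizontal axis, positive in the direction of transcription. Bars are broad peaks of the library named at the left, triangles the highest narrow summit in the window, the dark bar the gene with a tick at each annotated transcript start, and the light bar a neighbouring protein-coding gene. Peaks cross the dotted line at the most upstream annotated start in Junb, Jund and Ier2. They begin downstream of that line in the other genes that have one over the body.

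Among the Fos family, which supplies partners for Jun proteins, Fosl2 was the most widely marked and Fosb the least. Fos (chr12:85473890-85477273) had a domain that began 160 and 166 bp after the start in the controls and 64 and 207 bp after it in the knockdown libraries, and ended before the end of the gene in each. Covered length was 2715 and 2199 bp in the controls and 2945 and 2334 bp in the knockdown libraries, counting a small upstream peak in CTR 1 and NPM1 KD 1. The groups overlapped in covered length. The highest narrow summit of Fos stood 4.73-fold over background in CTR 1 and 4.05-fold in CTR 2, against 6.11-fold in NPM1 KD 1 and 5.32-fold in NPM1 KD 2, from pileups of 60, 34, 60 and 67 reads. Here both knockdown libraries were above both controls, by 1.32 on the fold scale between the means (4.39 ± 0.485 and 5.71 ± 0.557, SD, n = 2). With 2 libraries against 2, the two-sided exact permutation test cannot go below p = 0.33, so no difference of a single gene reached a threshold by that test.

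Fosb (chr7:19302696-19310051), a Fos paralog known for its long-lived spliced form in neurons, had weak peaks. In CTR 1 a single broad peak of 827 bp lay 2111 bp after the start, and in CTR 2 there was none. NPM1 KD 1 had peaks of 646 and 1403 bp and NPM1 KD 2 peaks of 575 and 892 bp. The 5′ peak of each knockdown library began 433 or 444 bp after the start, close to the start of the transcript Fosb-206, at a place with no control peak. Covered length came to 2049 and 1467 bp in these libraries, above both controls. In each library with a peak, the summit was the weakest of the 10 genes, with highest narrow summits of 2.1-fold in CTR 1, 3.81-fold in NPM1 KD 1 and 2.19-fold in NPM1 KD 2 and pileups of 26, 37 and 27 reads. When peaks with a −log10 q under 5 were left out, NPM1 KD 1 was the only library with a peak at Fosb and the groups overlapped.

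Fosl2 (chr5:32135801-32157842), which encodes FRA-2, carried a domain of 17693 to 18937 bp that began 204 to 306 bp after the start and ran over most of the gene. The window was covered over 19303 and 17794 bp in the controls and 19070 and 17693 bp in the knockdown libraries. The groups overlapped, and the libraries with the number 1 were above those with the number 2 in both groups.

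In the Jun family, the summits of Junb and Jund were in the range of those of Ier2, and those of Jun were lower. Jun (chr4:95049034-95052222) was covered from 24 to 73 bp after its start to 760 to 994 bp past its end. A separate weak domain upstream came no nearer to the start than −1446 to −2078 bp. Covered length was 5127 and 4930 bp in the controls and 5480 and 5297 bp in the knockdown libraries, so both knockdown libraries were above both controls. The gain lay upstream, where 32.8% and 30.8% of the 3 kb was covered in the controls and 51.8% and 40.4% after knockdown, while the body was covered over 97.7% to 99.2% in every library. The antisense transcript Junos overlaps the start of Jun and the upstream domain, and the peaks cannot be told apart by strand.

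Junb (chr8:84974484-84978718) lay in a domain that crossed the start, beginning at −2152 and −2000 bp in the controls and at −2242 bp in NPM1 KD 2. In NPM1 KD 1 the domain was joined with those on either side into 1 peak of 19190 bp, which also took in the neighbouring gene Prdx2. Covered length was 7733 and 6896 bp in the controls, 10235 bp in NPM1 KD 1, which is the whole window, and 7808 bp in NPM1 KD 2. The knockdown libraries were above the controls, but NPM1 KD 2 exceeded CTR 1 by less than the controls differed from each other. Without the bases of Prdx2 the order was the same, with 5996 and 5768 bp against 7235 and 6398 bp.

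Jund (chr8:70698949-70700616), the Jun gene that is active in resting cells, was covered over its whole body and the 3 kb downstream in all libraries, where Iqcn begins near the edge of the window. Upstream, the covered share of the 3 kb was 77.1% and 68.4% in the controls, the whole in NPM1 KD 1 and 88% in NPM1 KD 2. Over the window this gave 6982 and 6721 bp against 7668 and 7308 bp, with the knockdown libraries above, and the upstream part made up the entire difference between the groups.

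Of the Egr genes, which encode zinc finger factors for GC-rich sites, Egr1 differed more between the groups in broad coverage of the whole window. In percentage points, Egr2 differed more in the narrow lists (8.61 against 7.09) and over the gene body (11.5 against 9.79). On the log2 scale tested below, the difference in the narrow lists was larger at Egr1, 0.259 ± 0.025 (SE) against 0.235 ± 0.109 at Egr2. Egr1 (chr18:34859823-34864984) had a domain that began 1296 to 1364 bp after the annotated start in all libraries, within 20 to 88 bp upstream of the start of the shorter transcript Egr1-202. The domain was 3076 and 3517 bp long in the controls and 4995 and 3580 bp long in the knockdown libraries. NPM1 KD 1 also had a peak of 158 bp between the annotated start and the domain. All broad peaks together covered 3076 bp of the window in CTR 1 and 3517 bp in CTR 2. They covered 5153 and 4325 bp in the knockdown libraries, which both lay above. As a share of the window the mean was 29.5% ± 2.79 (SD, n = 2) for the controls and 42.5% ± 5.25 for the knockdown. The added length lay in other places in the 2 knockdown libraries. In NPM1 KD 1 the domain ran 1129 bp past the end of the gene, where the other libraries had none, and in NPM1 KD 2 a separate weak peak of 745 bp lay upstream of the start. Over the body alone the knockdown libraries, at 78% and 69.4%, were above the controls, at 59.6% and 68.1%, with CTR 2 and NPM1 KD 2 close to each other. The height of the summit did not follow the length, with folds of 9.55 and 7.63 in the controls and 10.1 and 6.57 after knockdown, so that the groups overlapped.

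Egr2 (chr10:67535475-67542188) was marked from the middle of its longest transcript onward. The first broad peak began 3085 and 3010 bp after the annotated start in the controls and 2902 and 2742 bp after it in the knockdown libraries, which is downstream of the starts of shorter transcripts at 2394 to 2455 bp and upstream of that of Egr2-203 at 3208 bp. No library had coverage in the 3 kb upstream, and every library covered all of the 3 kb downstream. The large peak that reached into Egr2 had its summit outside the window, 11518 bp from the start in NPM1 KD 2 and 12850 to 12898 bp in the other libraries, near the start of Ado, a gene on the opposite strand. Within the window, the highest summit stood at 3.49-fold and 3.01-fold in the controls and 4.51-fold and 3.05-fold in the knockdown libraries. It lay 4878 and 5535 bp from the start in the controls and 5462 bp from it in NPM1 KD 1. In NPM1 KD 2 the narrow peak over that stretch was joined with the one near Ado. Its value comes from another peak, with a summit at 3435 bp, so it is not like the others. Body coverage was 54.1% and 39% against 56.8% and 59.2%, with the knockdown libraries above. Without the bases of Ado itself, the window was covered over 5951 and 4938 bp against 6134 and 6294 bp, in the same order.

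Ier2 (chr8:84661331-84662852), a gene of 1522 bp for a nuclear protein, was covered over its whole body in every library. Of the window, 6379 and 6716 bp were covered in the controls and 7522 and 7007 bp in the knockdown libraries. Downstream coverage separated the groups, with 83.4% and 73.1% of the 3 kb in the controls and the whole of it in both knockdown libraries. Upstream it did not, since the peak of CTR 2 ran on for 36335 bp and that of NPM1 KD 1 for 11419 bp across the gap that the other libraries kept. The lincRNA Gm26664, on the opposite strand, begins in this upstream part.

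Atf3 (chr1:191170296-191218039), a stress-induced repressor of the ATF family, had its domain far from the annotated start of the long transcript. It began 35470 and 35712 bp from that start in the controls and 35096 and 35536 bp from it in the knockdown libraries, or 165 to 781 bp after the internal start of Atf3-202, and no library had a peak at the distal start. It covered 9134, 9087, 9726 and 9024 bp in the same order, with overlapping groups. Atf3-202 is annotated as a processed transcript, and the protein-coding Atf3-201 starts 34699 bp from the distal start. The Atf3 promoter shown above lies before the RefSeq start at 34706 bp.

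**Figure D2:**
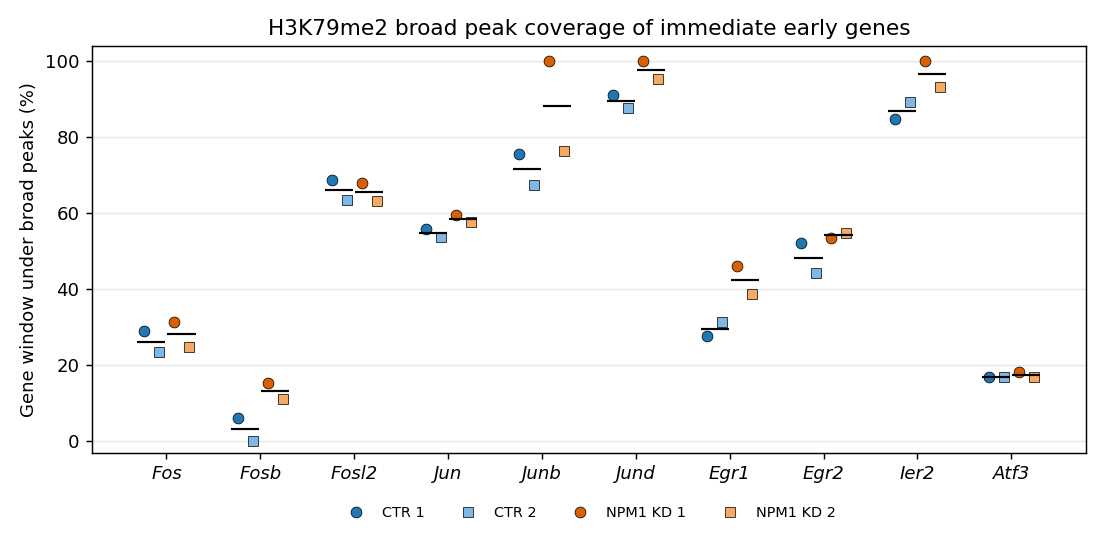
Share of each gene window under broad peaks, in percent, for the 4 libraries, with a line at the mean of each group of 2. In Fosb, Jun, Junb, Jund, Egr1, Egr2 and Ier2 both NPM1 KD points lie above both CTR points, and the groups overlap in Fos, Fosl2 and Atf3.

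Both knockdown libraries thus covered more of the window than both controls at 7 of the 10 genes, and the reverse order was seen at none. Over all 19745 gene windows with a broad peak in at least 1 library, 40.7% had both knockdown libraries above and 3.27% had both controls above. The order favoured the knockdown across the annotation, so the count for the immediate early genes describes them without setting them apart. More cells carrying the mark and more of it per cell cannot be told apart in these libraries. In the narrow lists the count was 5 of 10, against 36.9% of 20029 windows, and none had both controls above, against 4.59%, with Jun and Jund among the genes whose groups then overlapped.

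Part by part, the separation was smaller. Over the gene body, 4 of 10 genes (Fosb, Junb, Egr1 and Egr2) had both knockdown libraries above both controls, against 34.3% of 17502 gene bodies with a peak, and none had the reverse order, against 2.73%. In the 3 kb upstream it was 3 of the 7 genes with any peak there (Jun, Junb and Jund), against 21.3% of 14429, and downstream it was 1 of 6 (Ier2), against 21% of 10457. The reverse order was again absent, where 3.27% of upstream and 3.16% of downstream parts had it. Median body coverage over the 10 genes was 80.2% and 74.4% in the controls and 80.5% and 74.8% after knockdown, and it was ordered by replicate number and not by group. The bodies of Jund and Ier2 were covered in full in all libraries and could not show a gain.

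**Figure D3:**
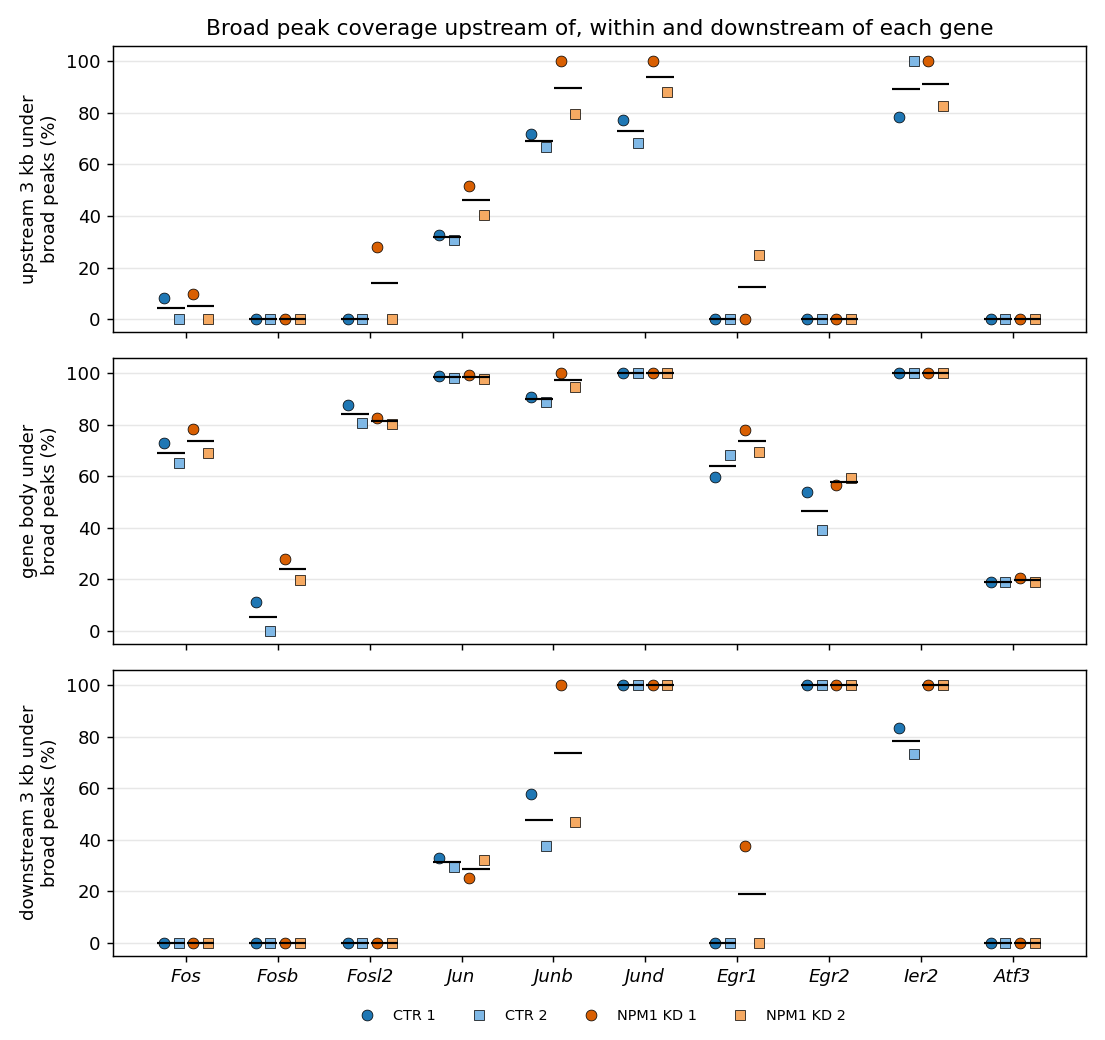
Share under broad peaks, in percent, of the 3 kb upstream, the gene body and the 3 kb downstream of each gene, for the 4 libraries, with a line at each group mean. The upstream panel separates the groups in Jun, Junb and Jund, the body panel in Fosb, Junb, Egr1 and Egr2, and the downstream panel in Ier2.

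Covered length was tested over all gene windows in 1 fit with limma on log2(covered bp + 1000), which understates changes of thinly covered windows. None of the 10 genes passed an adjusted p of 0.05 (Benjamini-Hochberg), where 0.0101% of the 19745 windows did. At an unadjusted p under 0.05 there was 1 of the 10, against 13.5% of all windows, which is no more than the background. It was Egr1, with a log2 difference of 0.42 ± 0.11 (SE) and a limma adjusted p of 0.359. The log2 difference of Egr1 was 0.342 without CTR 1, 0.49 without CTR 2, 0.312 without NPM1 KD 1 and 0.52 without NPM1 KD 2. Each of these fits leaves a lone library in a group, so the differences alone are given. The limma fit with the replicate number as a block, given in the last paragraph, picked out Jun and Jund at the same unadjusted level, and not Egr1. In the first fit, the largest log2 difference was that of Fosb, 1.02 ± 0.41 (SE), with a limma adjusted p of 0.446. The others lay between −0.01 for Fosl2 and 0.26 for Junb on the same scale, and the median over all windows was 0.08.

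The order of the genes by the height of their narrow summits was similar in the 4 libraries. Ranked among all protein-coding windows, those without a summit counted as 0, Junb, Jund and Ier2 stood at the 89.3rd to 97.7th percentile, and Fosl2 at the 87.8th to 91.8th. Jun followed at the 73.1st to 85.2nd percentile and Atf3 and Egr1 at the 61.6th to 71.9th. Fos, Egr2 and Fosb lay between the 47.3rd and 58.5th percentile where they had a summit. Junb, Jund and Ier2 were not ordered in the same way in every library, and Fosl2 was above Jund in NPM1 KD 2. Atf3 was above Egr1 and Fos above Egr2 in every library, and Egr2 was above Fosb wherever Fosb had a summit, and across libraries the folds overlapped in each of these pairs while the percentiles overlapped for Egr2 and Fosb alone.

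The summits of Junb, Ier2, Jun and Jund lay inside the gene, of which Ier2 and Jund are 1522 and 1668 bp long. Those of Fosl2 lay 6205 and 1658 bp after the start in the controls and 6182 and 1432 bp after it in the knockdown libraries. The summit of Junb was 762 to 891 bp after the start, that of Ier2 799 to 871 bp and that of Jun 603 to 783 bp, while that of Jund was 622 to 677 bp in 3 libraries and 1209 bp in CTR 2. At Jund the fold was 40 and 29.8 in the controls and 34.1 and 20.3 in the knockdown libraries. At Junb it was 38.1 and 30.8 against 34.2 and 22.5, and at Ier2 35.7 and 33.5 against 34.8 and 21.7, so that NPM1 KD 2 was the lowest at each and the groups overlapped. At Jun, CTR 1 and CTR 2 had summits of 19.9-fold and 20.7-fold and NPM1 KD 1 and NPM1 KD 2 of 18-fold and 11.6-fold, with both controls above. Both controls were also above at Fosl2, with 24.7-fold and 26.9-fold against 22.9-fold and 20.7-fold. NPM1 KD 2 also had the lowest 99th percentile of summit fold over its whole list, and the part of that in these orders was not tested.

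**Figure D4:**
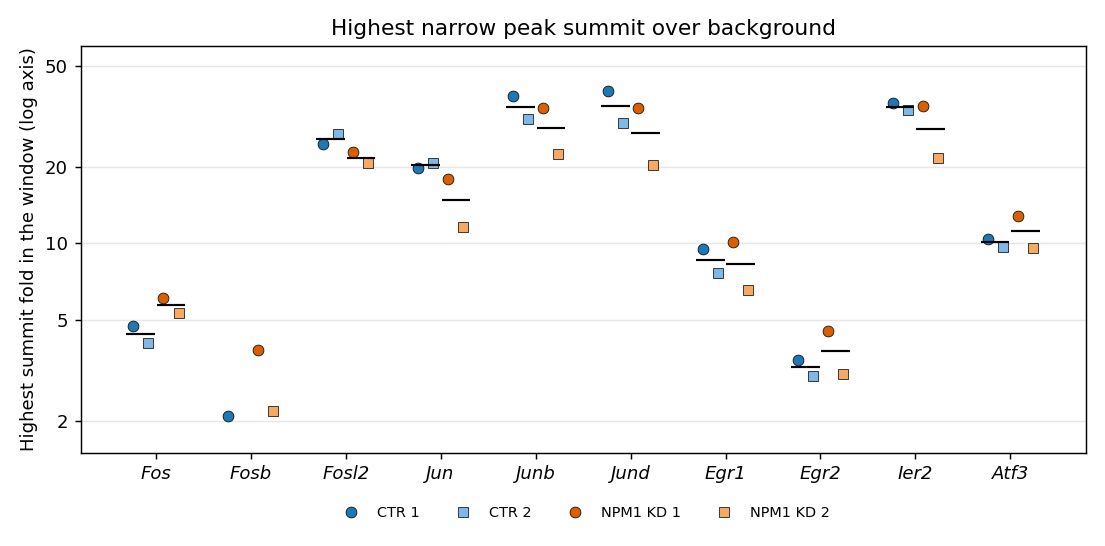
Highest narrow summit with its position inside each gene window, as fold over the MACS2 background on a log axis, for the 4 libraries with a line at each group mean. Junb, Jund and Ier2 stand highest by group mean, with points between 20.3 and 40, and Fosl2 is above Jund in NPM1 KD 2. Fosb has no peak in CTR 2 and therefore no mean line. NPM1 KD 2 is the lowest point in Junb, Jund, Ier2, Jun, Fosl2, Egr1 and Atf3.

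Averaged over a broad peak and ranked within its own list, the fold gave another order. The controls were above at Junb, Egr2 and Ier2, 3 of the 9 genes with a broad peak in all libraries, where 4.51% of 18039 windows were ordered in that way. The knockdown libraries were above at Fos and Fosl2, against 28.5% of windows. At Fosl2 the mean percentiles differed by 0.594, and the broad fold itself was higher in both controls. It was 9.99 and 10.7 there against 9.83 and 9.48 in the knockdown libraries. At Junb the broad fold was 11.2 and 11.4 in the controls and 7.27 and 7.57 in the knockdown libraries, with mean percentiles of 98.1 ± 0.271 and 94.7 ± 0.71 (SD, n = 2). The peak of NPM1 KD 1 was the joined one of 19190 bp, while that of NPM1 KD 2, at 6258 bp, was near the control lengths of 5996 and 5768 bp. At Ier2 it was 13.1 and 10.7 against 7.59 and 8.18, from peaks of 4856 and 36335 bp against 11419 and 6271 bp. Whether peak length had a part in these folds was not tested. In the narrow lists, where the fold is read at the summit, the groups overlapped at Junb and Ier2. At Egr2 the broad peak was the one shared with Ado.

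Genes of the same kind that are not among the 10 varied as widely. Of 30 other immediate early genes, 26 had a broad peak in all libraries, against 52.7% of protein-coding windows. No library had a peak at 2 of them, the zinc finger gene Egr4 and the matricellular gene Ccn2. Npas4, an activity-dependent factor of neurons, had a peak in NPM1 KD 1 alone, over 7.92% of its window. The windows of Dusp4 and Dusp6, phosphatases that act on MAP kinases, were fully covered in all libraries, and that of Myc was covered over 87.5% and 88.3% in the controls and 92.6% and 88.9% after knockdown. Both knockdown libraries were above both controls at 11 of the 30 genes and below at 2, where 40.7% and 3.27% of all windows had these orders, so the share above was under the background. None passed limma's adjusted p, and 2 were under an unadjusted p of 0.05, where 13.5% of all windows were.

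Of the listed kinases, factors and cofactors that act on these genes, 26 of 26 had a broad peak in all libraries, against 52.7% of protein-coding windows. At least 1 bp in the window sufficed for this, and some of these windows were long, with 184545 bp at Rps6ka5. Coverage was highest at Creb1 (85.1% and 90.1% in the controls, 93.6% and 91% after knockdown), which encodes CREB, and the serum response factor partner Elk3 was also among the highest (mean of 85.1% over the 4 libraries). It was lowest at the kinase gene Rps6ka5 (9.76%), the CREB relative Crem (11.5%) and Elk1 (14.2%). Both knockdown libraries were above both controls at 14 of the 26 genes and below at 1, beside the same 40.7% and 3.27% of all windows. The difference was at least 10 percentage points at Elk4, another partner of serum response factor, covered over 60.8% and 49.2% against 69.3% and 67.2%, and at Nab2, a corepressor of Egr proteins, covered over 34.3% and 23.1% against 39.9% and 37.7%. None of the 26 passed limma's adjusted p, and 4 were under an unadjusted p of 0.05, again beside 13.5% of all windows. Median coverage over this list was 57% in the controls and 62% after knockdown, against 51.4% and 56.4% over the 10 immediate early genes and 35.7% and 40.4% over the other 30.

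**Figure D5:**
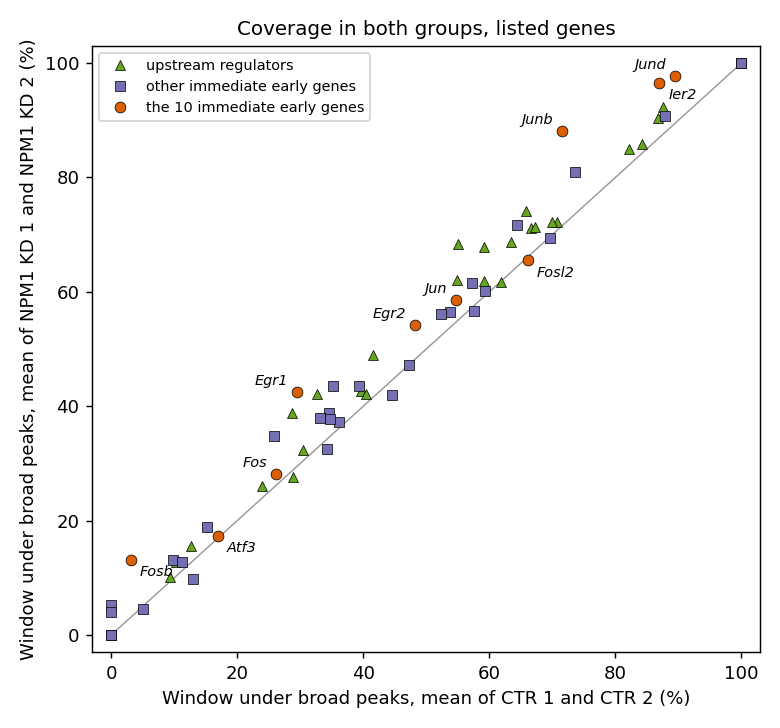
Share of the gene window under broad peaks in percent, with the mean of the 2 CTR libraries on the horizontal axis and the mean of the 2 NPM1 KD libraries on the vertical axis, for the 10 immediate early genes (labelled), 30 others and 26 upstream regulators. The line marks equal coverage, and Junb, Egr1 and Fosb lie farthest above it among the labelled genes.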

How the data were processed

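H3K79me2 ChIP-seq peak lists of 4 libraries (CTR and NPM1 KD, 2 each) were analysed, and the 2 pooled inputs were not analysed here. According to the submitters' processing notes, reads were checked with FastQC 0.11.9, trimmed with Trimmomatic 0.38 and aligned to mm10 with Bowtie2 2.3.4.1, and the authors called narrow and broad peaks per library with MACS2 2.2.6. The methods of the study name another MACS2 version and filter on mapping quality ahead of calling, and of the deposited lists the broad ones alone carry the word filtered in their peak names. Whether the input served as the control in calling is not given in the sources used here. The deposited fold over background is a ratio, read at the summit for narrow peaks and as the mean of the peak for broad ones. The deposited −log10 p and −log10 q values and the deposited score, which follows −log10 q, belong to single peaks. Read counts were not analysed here, so covered length tests the extent of called peaks and not their reads.

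Gene windows were taken from GENCODE mouse release 21, on the build of the lists, where no peak ran past a chromosome end. A peak counted with at least 1 bp in the window. Overlapping peaks of a library were merged, and covered bp were compared by exact permutation (two-sided) and, over the 19745 windows with a broad peak, by limma 3.58.1 (R 4.3.3) after taking log2(covered bp + 1000). This fit was tested on simulated data first. The summit pileup and background were solved from the fold and p of narrow peaks by the Poisson distribution that MACS2 uses. Other steps used Python 3.11.15, numpy 2.4.6, pandas 2.3.3 and matplotlib 3.10.9.

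The 10 genes, both gene lists and the motifs were chosen with earlier results of these data known. From each list the text names the 3 genes with the highest and the 3 with the lowest mean coverage, and those with separated groups and a difference of at least 10 percentage points. Some genes of the lists are not reported by name here. Alternatives were the narrow lists, a −log10 q of at least 5, lists of equal size, the gene body alone, windows without bases of other protein-coding genes, a pseudocount of 200 bp, protein-coding genes only, no filter on windows, the replicate block and leaving out each library. The narrow fold with its summit inside the window was added after seeing the data.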

Additional observations from a re-analysis of the deposited data

How the results depend on the processing

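The files give the extent of called peaks, so a change in the height of the mark within a called domain is outside the test of covered length, and a fully covered body cannot show a gain. With 2 libraries a group, leaving 1 out leaves a lone library that is assumed to vary like the others. Over the gene body alone, both knockdown libraries were above both controls at 4 genes, and the medians of the groups differed by 0.3 percentage points. Leaving out each library in turn gave 7 to 9 genes with NPM1 KD above, 0 to 2 with CTR above (1, Fosl2, without CTR 2, and 2, Fosl2 and Atf3, without NPM1 KD 1), 9 to 10 genes with a peak in all remaining libraries and median differences of 2.46 to 7.51 percentage points. The number of windows past limma's adjusted p was 2, and it was 0 in the narrow lists, in lists of equal size and for protein-coding genes, 63 with a −log10 q of at least 5, 23 with a pseudocount of 200 bp, 19 with no filter on windows, a fit in which most variances were 0, and 0 when each library was left out in turn. In the settings with 0 calls, 1781 to 3387 windows were under an unadjusted p of 0.05, the block included, and 2663 were in the fit reported above. None of the 10 genes passed the adjusted p in any of these settings. The median log2 difference over all windows was 0.08, and it was 0.11 without CTR 1, 0.04 without CTR 2, 0.04 without NPM1 KD 1 and 0.10 without NPM1 KD 2.

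With the replicate block, limma called 0 windows, and Jun (limma adjusted p = 0.277) and Jund (limma adjusted p = 0.274) were the genes of the 10 under an unadjusted p of 0.05. Same-numbered libraries deviated together from their group means with a correlation of 0.203 over 19745 windows, and the methods of the study give each replicate its own passage and transfection batch, so that a number may mark a batch shared by both groups, which the labels do not state. Between same-numbered libraries, covered length was higher after knockdown at Fos in both pairs (2715 and 2945 bp, 2199 and 2334 bp) and lower at Fosl2 in both (19303 and 19070 bp, 17794 and 17693 bp). The percentile of the highest fold, NPM1 KD minus CTR, changed sign in the narrow lists for Fosl2 (-0.0961, with any peak or with the summit in the window) and for Egr2 with the summit in the window (11.3), which leaves out the peak shared with Ado. For single genes, 79 of 90 alternative values of covered length and 54 of 63 of the fold percentile moved by less than the spread between libraries.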
